A study of Mus musculus with 8 samples.

Results

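The genes described here are 7 components of the machinery by which cells sense nucleic acids: the DNA sensor cGAS, its partner STING, the RNA receptor Tlr3, the Toll adaptors Ticam1 and Myd88, and the kinases Tbk1 and Ikbke. They were taken by name from a table of 24972 genes, with earlier results of these data known. All 7 were found and all 7 had a mean of at least 10 normalized counts, the level above which genes were tested (13267 genes). Cgas is listed in the table under its older name Mb21d1, and Sting1 under Tmem173.

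RNA sequencing was done on untreated primary mouse embryonic fibroblasts, cultures grown from embryos of embryonic day 14 and taken through 2 passages before RNA was prepared. There were 8 libraries of 4 genotypes, 2 per genotype: wild type (WT), cells heterozygous for Tfam (Tfam+/-), cells lacking Zbp1 (Zbp1-/-), and cells with both changes (Tfam+/-Zbp1-/-). Tfam encodes the protein that packages mitochondrial DNA, and Zbp1 encodes a receptor for nucleic acids in the Z conformation. Nothing in the labels tells if libraries of 1 genotype stem from different embryos, so p-values measure only the spread between these libraries, which may be technical.

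The enzyme cGAS binds DNA in the cytosol, including mitochondrial DNA that has left its organelle, and makes the messenger cGAMP. STING, on the endoplasmic reticulum, binds cGAMP and recruits the kinase TBK1, which phosphorylates the transcription factor IRF3 and so leads to type I interferon. TLR3 meets double-stranded RNA in endosomes and signals through TICAM1 (TRIF) to TBK1 and IKKε, the product of Ikbke, whereas most other Toll-like receptors signal through MYD88 to NF-kappa B.

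The labels were checked on the targeted genes first. Tfam was at 629 and 610 normalized counts for WT, 278 and 365 for Tfam+/-, 675 and 471 for Zbp1-/-, and 424 and 375 for Tfam+/-Zbp1-/-. Zbp1 was at 7.34 and 3.19 for WT, 64.6 and 69.8 for Tfam+/-, 3.79 and 1.03 for Zbp1-/-, and 0.862 and 2.69 for Tfam+/-Zbp1-/-. Tfam was thus lower in both Tfam+/- libraries than in either WT library, with a log2 change of -0.96 that did not pass the test (limma, adjusted p = 0.163), and Zbp1 was so low in WT that its level there does not tell WT from Zbp1-/-. Each library summed to between 16752835 and 18303036 normalized counts. Tfam+/- replicate 1 and Zbp1-/- replicate 2 stood apart from their replicates and deviated together: the median absolute difference between the libraries of a genotype was 0.35 on the log2 scale in Tfam+/- and 0.32 in Zbp1-/-, against 0.07 in WT and 0.07 in Tfam+/-Zbp1-/-. Results are therefore given with all 8 libraries, with a term shared by these 2 libraries, and with the other 6 alone.

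All 10 fibroblast markers searched for (among them Col1a1 and Pdgfra) were present, with a summed level of 500520 to 737090 normalized counts per library. Of 15 macrophage and leukocyte markers none was at 0. Their sum was 6074 and 5993 for WT, 8435 and 7125 for Tfam+/-, 3806 and 3742 for Zbp1-/-, and 3082 and 3089 for Tfam+/-Zbp1-/-. Of 6 endothelial markers, Pecam1, Cdh5 and Tie1 had means of at most 3.06 normalized counts, while Kdr (229.8), Tek (66.5) and Emcn (47.4) were present. Of 6 epithelial markers, Epcam and Cdh1 had means of at most 2.98, Cldn4 (8.22) and Cldn7 (0.807) were also below the level tested, and the keratins Krt18 (131) and Krt8 (96.6) were present. Macrophages also use genes of this machinery, Tlr3 and Myd88 among them, and the part of these cells in the levels of all 7 sensing genes was not tested. In such cultures, fewer cells of a type and less RNA per cell cannot be told apart.

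The starts of 6 of the genes, all but Sting1, were searched on both strands for the core of the interferon-stimulated response element (a GAAA pair with 2 free bases between them), a gamma-activated site (TTCNNNGAA) and the kappa B consensus, in the window from 250 bases before to 50 bases after the RefSeq start (GRCm38.p6, the assembly also called mm10). Of the 6 windows searched, that of Myd88 held the first 2 motifs and that of Tlr3 held a kappa B match, and these stretches are shown because they are the matches found. The windows of Cgas, Tbk1, Ikbke and Ticam1 held none of the 3, which says only that these letters are not in those windows. Among 32851 promoter windows of the same length, 3.44% held the response element core, 8.3% the gamma-activated site and 5.8% a kappa B match. The stretches are from the minus strand, chr9:119340049-119340268 for Myd88 and chr8:45410572-45410601 for Tlr3, and capitals mark the matches.
Myd88: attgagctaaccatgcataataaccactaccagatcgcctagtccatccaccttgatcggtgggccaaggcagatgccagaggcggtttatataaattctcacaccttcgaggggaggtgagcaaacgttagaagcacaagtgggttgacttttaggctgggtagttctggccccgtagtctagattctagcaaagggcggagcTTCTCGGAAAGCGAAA
Tlr3: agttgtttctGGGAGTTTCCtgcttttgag
In Myd88 the gamma-activated site begins 46 bases before the start and overlaps the response element core, which begins 40 bases before it (TTCTCGGAA and GAAAGCGAAA). This stretch lies before the RefSeq start of Myd88 (119340018) but within the gene's GENCODE span (to 119341411), and touches no Myd88 exon in GENCODE. The kappa B match of Tlr3, 211 bases before the RefSeq start used, lies in an exon of 4 of its GENCODE transcripts. The whole Tlr3 window (chr8:45410331-45410630) lies inside the gene, which RefSeq places to 45411075. The sequence before that outermost start was therefore not searched. A match is a sequence description and was not tied to binding.

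The DNA sensor Cgas was among the lower of the 7 genes. It lies on chromosome 9 (78430526 to 78443237, minus strand, mm10). Its level was 112 and 98.2 normalized counts for WT, 83.0 and 123 for Tfam+/-, 97.5 and 99.0 for Zbp1-/-, and 139.9 and 112 for Tfam+/-Zbp1-/-. The Tfam+/- libraries lay on either side of both WT libraries, and the Tfam+/-Zbp1-/- libraries were the only pair with both above both WT values. The margin was slight, with the lower Tfam+/-Zbp1-/- library at 111.99 and the higher WT library at 111.58. From WT to Tfam+/- the log2 change, on the scale of log2(normalized count + 1), was -0.05 ± 0.22 (SE, n = 2 and 2; limma, adjusted p = 0.91), with a 95% interval of 0.669-fold to 1.40-fold.

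Sting1, on chromosome 18, was far more abundant. Its level was 721 and 725 for WT, 969 and 777 for Tfam+/-, 780.3 and 1017 for Zbp1-/-, and 761 and 751 for Tfam+/-Zbp1-/-. All 6 libraries of the mutant genotypes were above both WT libraries, and the highest values were those of Tfam+/- replicate 1 and Zbp1-/- replicate 2. The log2 change from WT was 0.26 ± 0.16 in Tfam+/- (adjusted p = 0.559), 0.30 ± 0.16 in Zbp1-/- (adjusted p = 0.339) and 0.06 ± 0.16 in Tfam+/-Zbp1-/- (adjusted p = 0.932), none past the threshold of 0.05 (limma). The last of these turned to -0.05 when the libraries were rescaled by the trimmed mean of M-values (TMM).

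The receptor Tlr3 varied most of the 7. It lies on chromosome 8 (45395665 to 45411080, minus strand). Its level was 76.9 and 94.3 for WT, 100.04 and 184 for Tfam+/-, 113 and 58.8 for Zbp1-/-, and 108 and 115 for Tfam+/-Zbp1-/-. Both Tfam+/- libraries and both Tfam+/-Zbp1-/- libraries were above both WT libraries, while the Zbp1-/- libraries fell on either side of them. The log2 change from WT to Tfam+/- was 0.66 ± 0.38 (adjusted p = 0.559, limma), and its 95% interval ran from 0.85-fold to 2.96-fold.

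Ticam1, the adaptor of Tlr3, was at 310.5 and 333 for WT, 437 and 293 for Tfam+/-, 387 and 484 for Zbp1-/-, and 358 and 391 for Tfam+/-Zbp1-/- (chromosome 17, 56269319 to 56276786, minus strand). Both Zbp1-/- and both Tfam+/-Zbp1-/- libraries were above both WT libraries, and the Tfam+/- libraries lay on either side of WT. The log2 change from WT to Zbp1-/- was 0.43 ± 0.21 (adjusted p = 0.302, limma).

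Myd88, the adaptor of most other Toll-like receptors, was at 454 and 449 for WT, 562 and 461 for Tfam+/-, 526 and 597 for Zbp1-/-, and 468 and 459 for Tfam+/-Zbp1-/- (chromosome 9, 119335934 to 119341411, minus strand). Every mutant library was above both WT libraries. The log2 change was 0.17 ± 0.13 in Tfam+/- (adjusted p = 0.567), 0.31 ± 0.13 in Zbp1-/- (adjusted p = 0.261) and 0.04 ± 0.13 in Tfam+/-Zbp1-/- (adjusted p = 0.958; limma), the last turning to -0.08 under TMM rescaling. Myd88 overlaps Acaa1a on the opposite strand, a gene at 730.4 to 1322 normalized counts, and 223 of its 1960 exon bases lie in exons of Acaa1a. None of these bases is shared between the RefSeq transcripts of the pair, and whether counting used strand is not stated in these sources.

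Tbk1, the kinase on which both routes converge, was at 794 and 737 for WT, 639.5 and 770.5 for Tfam+/-, 712 and 636 for Zbp1-/-, and 792 and 796 for Tfam+/-Zbp1-/- (chromosome 10, 121546455 to 121586787, minus strand). Its lowest values were those of Tfam+/- replicate 1 and Zbp1-/- replicate 2, the same libraries in which Sting1 was highest. The log2 change from WT was -0.12 ± 0.13 in Tfam+/- (adjusted p = 0.627), -0.19 ± 0.13 in Zbp1-/- (adjusted p = 0.423) and 0.05 ± 0.13 in Tfam+/-Zbp1-/- (adjusted p = 0.929; limma).

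Its relative Ikbke was at 187 and 196 for WT, 234 and 164 for Tfam+/-, 237 and 300.3 for Zbp1-/-, and 211 and 189 for Tfam+/-Zbp1-/- (chromosome 1, 131254343 to 131279606, minus strand). Only the Zbp1-/- libraries were both above both WT libraries, with a log2 change of 0.48 ± 0.20 and an adjusted p of 0.257 (limma). Cgas, Ikbke and Tlr3 overlap antisense genes or a transcribed pseudogene in GENCODE, and reads from these could not be separated without strand.

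**Figure D1:**
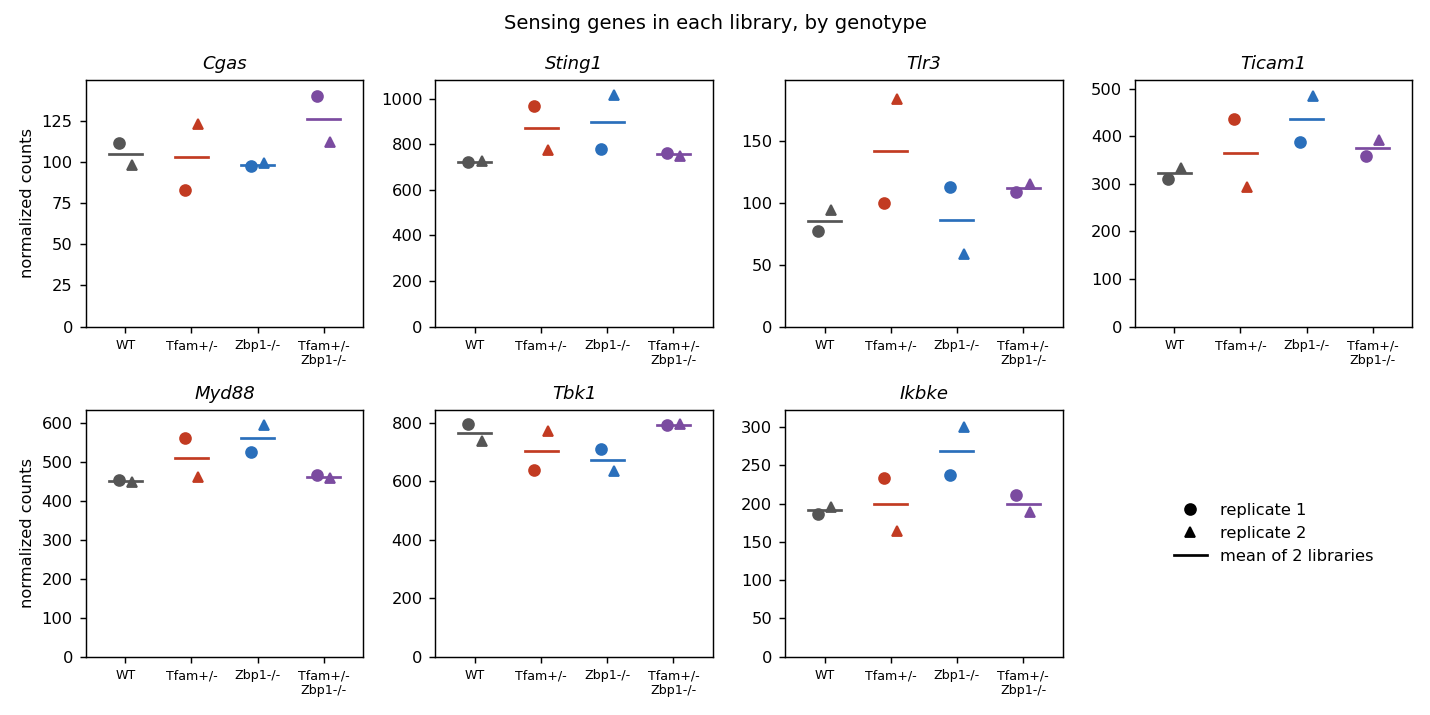
Normalized counts (vertical axes, each starting at 0) of the 7 sensing genes in the 2 libraries of each genotype (circles, replicate 1; triangles, replicate 2; lines, means). Libraries of Tfam+/- and Zbp1-/- lie further apart than those of WT and Tfam+/-Zbp1-/- for Sting1, Tlr3, Ticam1, Myd88, Tbk1 and Ikbke.

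Levels were compared between genes per kilobase of RefSeq exons. In WT the order was Sting1 (314 normalized counts per kb), Tbk1 (253), Myd88 (230.3), Ticam1 (108), Ikbke (58.8), Cgas (25.9) and Tlr3 (19.4), and no neighbours overlapped between the 2 libraries. In Tfam+/- Myd88 (261) stood before Tbk1 (233) and Tlr3 (32.2) before Cgas (25.5), and in both pairs the libraries overlapped. In Zbp1-/- Myd88 (286) was above Tbk1 (223) without overlap, while Cgas (24.3) and Tlr3 (19.5) overlapped. The order in Tfam+/-Zbp1-/- was that of WT, from Sting1 at 328 to Tlr3 at 25.4. Cgas and STING, the sensor and the protein it activates, thus differed in transcript level per length in every genotype, whereas Cgas and Tlr3 were the lowest pair throughout. The place of Ikbke depends on the gene model: with all GENCODE transcripts merged, its length rose from 3.25 to 9.02 kb and its mean over the 8 libraries fell from 66.0 to 23.8 per kb, beside 26.2 for Cgas.

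With 1 Tfam allele lost, none of the 7 sensing genes changed past the threshold. In the same comparison the interferon-stimulated gene Usp18, which encodes a protease that removes ISG15, went from 26.4 and 21.3 normalized counts in WT to 761 and 625 in Tfam+/-. Isg15, the ubiquitin-like modifier itself, went from 49.0 and 71.7 to 1410 and 1038. The log2 change was 4.81 for Usp18 (adjusted p = 0.000801) and 4.33 for Isg15 (adjusted p = 0.00163; limma). In the sensing genes the count was 0 of 7, where 0.731% of all genes tested were called, so the count is near the background and says little of these genes as a group. Taking unadjusted p-values under 0.05, it was again 0 of 7, beside 8.74% of all genes. The size is better bounded by the intervals: the upper 95% limits of the fold change were 1.40 for Cgas, 1.57 for Sting1, 1.14 for Tbk1, 1.44 for Ikbke, 1.58 for Ticam1, 1.41 for Myd88 and 2.96 for Tlr3. The libraries of Tfam+/- and WT did not overlap for 3 of the 7 (Sting1, Tlr3 and Myd88, all higher), beside 48.8% of all genes (23.3% higher), and the median log2 change was 0.15 in the 7 and -0.01 over all genes.

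Loss of Zbp1 gave no call among the 7 either (0 of 7, beside 1.06% of all genes; at an unadjusted p, 0 of 7 beside 19.7%). The nearest to the threshold were Ikbke (unadjusted p = 0.0527) and Myd88 (unadjusted p = 0.0556), with adjusted p of 0.257 and 0.261 (limma). Libraries did not overlap for 5 of 7 genes, Sting1, Ikbke, Ticam1 and Myd88 above WT and Tbk1 below it, beside 58.9% of all genes (42.1% above WT). The median log2 change was 0.30, beside 0.11 over all genes. That last shift went to -0.004 under TMM rescaling, as did the shifts of 0.12 in Tfam+/-Zbp1-/- against WT (to 0.006) and 0.14 in Tfam+/-Zbp1-/- against Tfam+/- (to 0.02), so small changes in these 3 comparisons are relative to the scaling.

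Tfam+/-Zbp1-/- cells were compared with each of the other genotypes. Against WT, 0 of 7 were called (1.38% of all genes; unadjusted, 0 of 7 beside 12.6%). All 7 estimates lay above 0 as deposited, with a median of 0.06 beside 0.12 over all genes, and those of Sting1, Tbk1, Ikbke and Myd88 were below 0 under TMM rescaling. Against Tfam+/-, 0 of 7 were called, in the comparison with the most calls of the 6 (5.64% of all genes; unadjusted, 0 of 7 beside 20.8%). The estimates there ran from -0.28 ± 0.38 for Tlr3 to 0.30 ± 0.22 for Cgas. Against Zbp1-/-, 0 of 7 were called (0.415%; unadjusted, 0 of 7 beside 12.3%), and the estimates ran from -0.42 ± 0.20 for Ikbke to 0.45 ± 0.38 for Tlr3. Libraries did not overlap for 5, 2 and 5 of the 7 in these 3 comparisons, beside 72.9%, 55.9% and 49.5% of all genes. Of these, 5, 1 and 2 were higher in Tfam+/-Zbp1-/-, beside 58.8%, 42.4% and 26.2% of all genes. These comparisons share libraries with one another and with those above.

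The interaction asked whether the change with 1 Tfam allele lost differed between cells with and without Zbp1. It was called for 0 of 7 genes (0.663% of all genes; unadjusted, 0 of 7 beside 16%). The estimates were -0.50 ± 0.23 for Sting1, -0.45 ± 0.29 for Ikbke, -0.45 ± 0.19 for Myd88, -0.36 ± 0.30 for Ticam1, -0.21 ± 0.53 for Tlr3, 0.40 ± 0.32 for Cgas and 0.36 ± 0.18 for Tbk1. The lowest adjusted p was 0.315, that of Myd88 (limma). The median was -0.36, beside 1.93e-05 over all genes.

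**Figure D2:**
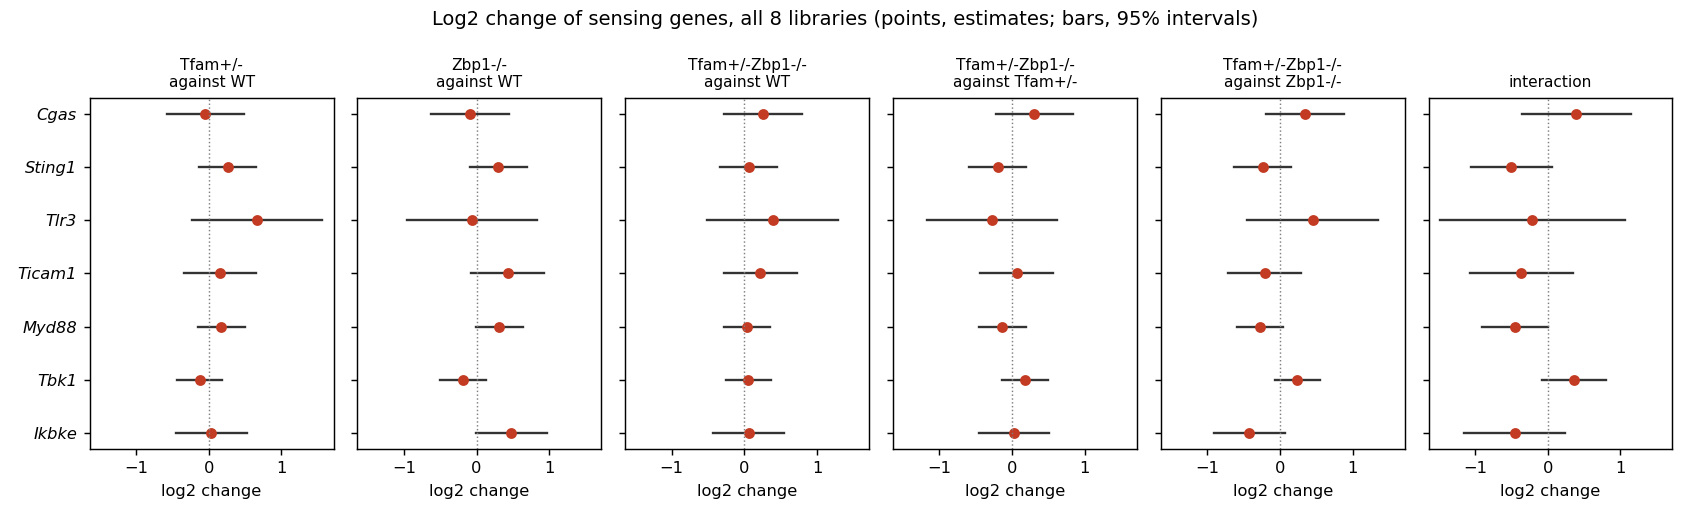
Log2 change (horizontal axis) of each sensing gene in the 6 comparisons with all 8 libraries. Points are estimates and bars 95% intervals. Each bar reaches 0, and those of Tlr3 are the widest.

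Much of the spread in the 7 genes lay between the 2 libraries of Tfam+/- and of Zbp1-/-. In Tfam+/- the log2 difference of replicate 1 from replicate 2 was 0.57 for Ticam1, 0.51 for Ikbke, 0.32 for Sting1, 0.28 for Myd88, -0.27 for Tbk1, -0.56 for Cgas and -0.87 for Tlr3. In Zbp1-/- the signs were the opposite for 6 of them, at -0.32, -0.34, -0.38 and -0.18 for Ticam1, Ikbke, Sting1 and Myd88 and 0.16 and 0.93 for Tbk1 and Tlr3. Cgas differed by -0.02 there. Thus Tfam+/- replicate 1 and Zbp1-/- replicate 2 both had more Sting1, Ikbke, Ticam1 and Myd88 and less Tbk1 and Tlr3 than their replicates. Between WT libraries the differences ran from -0.29 (Tlr3) to 0.18 (Cgas), and between Tfam+/-Zbp1-/- libraries from -0.13 (Ticam1) to 0.32 (Cgas).

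**Figure D3:**
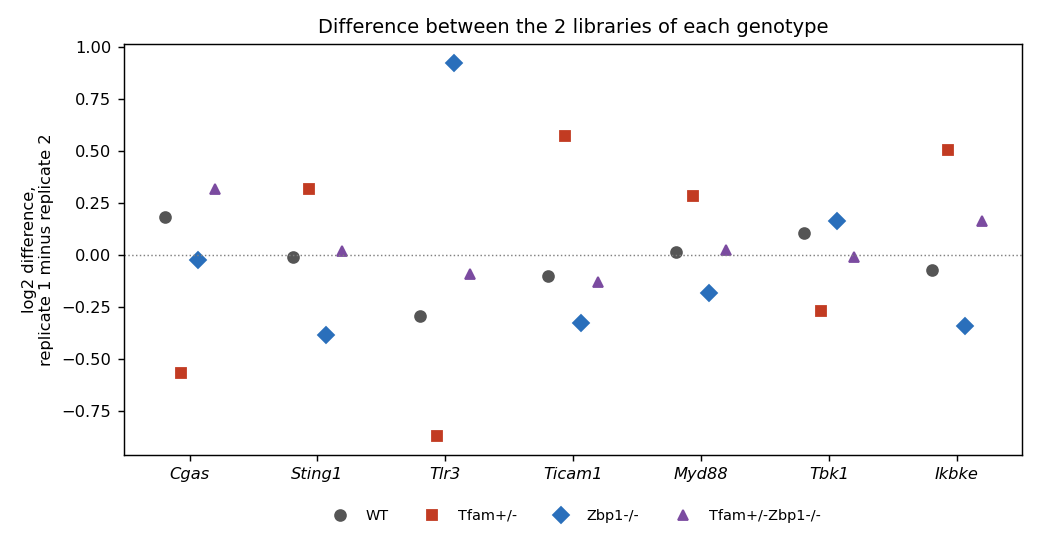
Log2 difference of replicate 1 from replicate 2 (vertical axis) for each sensing gene in the 4 genotypes. Squares (Tfam+/-) and diamonds (Zbp1-/-) lie on opposite sides of 0 for Sting1, Tlr3, Ticam1, Myd88, Tbk1 and Ikbke.

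A term shared by those 2 libraries was called in 8669 of 13267 genes (65.3%, with 31.1% positive and 34.2% negative), and in 6 of the 7 sensing genes. The libraries were known to deviate together when the term was set up, so this count only describes them. The shared log2 deviation was 0.45 ± 0.08 for Ticam1, 0.42 ± 0.10 for Ikbke, 0.35 ± 0.05 for Sting1 and 0.23 ± 0.06 for Myd88, and it was -0.22 ± 0.06 for Tbk1 and -0.90 ± 0.15 for Tlr3. Cgas, at -0.27 ± 0.16, was not called (adjusted p = 0.154, limma).

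With that term, Tlr3 rose in Tfam+/- by 1.11 ± 0.16 on the log2 scale (adjusted p = 9.33e-05), and with the other 6 libraries alone by 1.10 ± 0.17 (adjusted p = 0.00028; limma). It was 1 of 7 members called in either fit, beside 15.6% and 15.4% of all genes. Its interaction was -1.11 ± 0.26 (adjusted p = 0.00483, 1 of 7 beside 16.9%) with the term and -1.11 ± 0.25 (adjusted p = 0.00392, 1 of 7 beside 19.1%) with 6 libraries. These values rest on Tfam+/- replicate 2, at 184 normalized counts, which in the fit of 6 libraries is the only Tfam+/- library. The interaction also rests on Zbp1-/- replicate 1, at 113, the only Zbp1-/- library in that fit. By construction both fits give the same interaction estimate, so the fit of 6 libraries adds no separate support to it. Each lone library is assumed to vary like the others. Fits that left out 1 library held no shared term. Where either of these was left out, its genotype kept only Tfam+/- replicate 1 or Zbp1-/- replicate 2, whose deviation the term takes up. Such fits therefore cannot test the estimates with the term. Without Zbp1-/- replicate 1 the interaction was 0.25. Without Tfam+/- replicate 2, and with the other 7 libraries, the change from WT to Tfam+/- was 0.23 and the interaction 0.22, neither past the threshold. Without Tfam+/- replicate 1 and with the other 7 libraries the change was 1.10 (adjusted p = 0.66). The macrophage and leukocyte markers moved in the same direction here: with the term, 7 of 15 were called higher from WT to Tfam+/- and 9 of 15 were called lower in the interaction. Elsewhere they moved the other way. With the term, 14 of 15 were called lower from WT to Tfam+/-Zbp1-/- and 12 of 15 from WT to Zbp1-/-, where the change of Tlr3 was 0.39 in each. Their part in the values of Tlr3 was not tested.

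The other calls under these fits were of Myd88, Ticam1 and Tlr3. Both fits keep the deposited scale and were not run with TMM rescaling. With all 8 libraries the median over all genes was 0.11 from WT to Zbp1-/- and 0.12 from WT to Tfam+/-Zbp1-/-. From Tfam+/- to Tfam+/-Zbp1-/- it was 0.14, so small changes here are relative to the scaling. The estimates from WT to Tfam+/-Zbp1-/- are the same by construction with all 8 libraries and in both fits. From WT to Zbp1-/-, Myd88 rose by 0.19 ± 0.07 with the term (adjusted p = 0.0418, 1 of 7 beside 35.6%), and with 6 libraries Myd88 rose by 0.22 ± 0.08 (adjusted p = 0.039) and Ticam1 by 0.27 ± 0.10 (adjusted p = 0.0442, 2 of 7 beside 34.3%). With 6 libraries Zbp1-/- is 1 library, replicate 1, assumed to vary like the others. From WT to Tfam+/-Zbp1-/-, Tlr3 rose by 0.39 ± 0.15 (adjusted p = 0.0419) and Ticam1 by 0.22 ± 0.08 (adjusted p = 0.0397) with the term, 2 of 7 beside 42.5%, and the same 2 genes were called with 6 libraries, beside 44.8%. From Tfam+/- to Tfam+/-Zbp1-/-, Tlr3 fell by 0.73 ± 0.16 (adjusted p = 0.00164) and Ticam1 rose by 0.29 ± 0.09 (adjusted p = 0.0163) with the term, 2 of 7 beside 45.6%, and the same 2 were called with 6 libraries (beside 43.6%). Both directions rest on Tfam+/- replicate 2. Without it, with the other 7 libraries and no shared term, the changes were 0.16 for Tlr3 and -0.22 for Ticam1, neither called. The Tfam+/- library left is then replicate 1, whose deviation the term takes up, so that fit cannot test the estimates with the term. In this comparison 14 of the 15 macrophage and leukocyte markers were called lower with the term, and their part was not tested. From Zbp1-/- to Tfam+/-Zbp1-/- 0 of 7 were called with the term, beside 23.8% of all genes. The lowest adjusted p there was 0.128, that of Myd88 (limma). Cgas, Sting1, Tbk1 and Ikbke were called in none of the 6 comparisons under either fit.

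**Figure D4:**
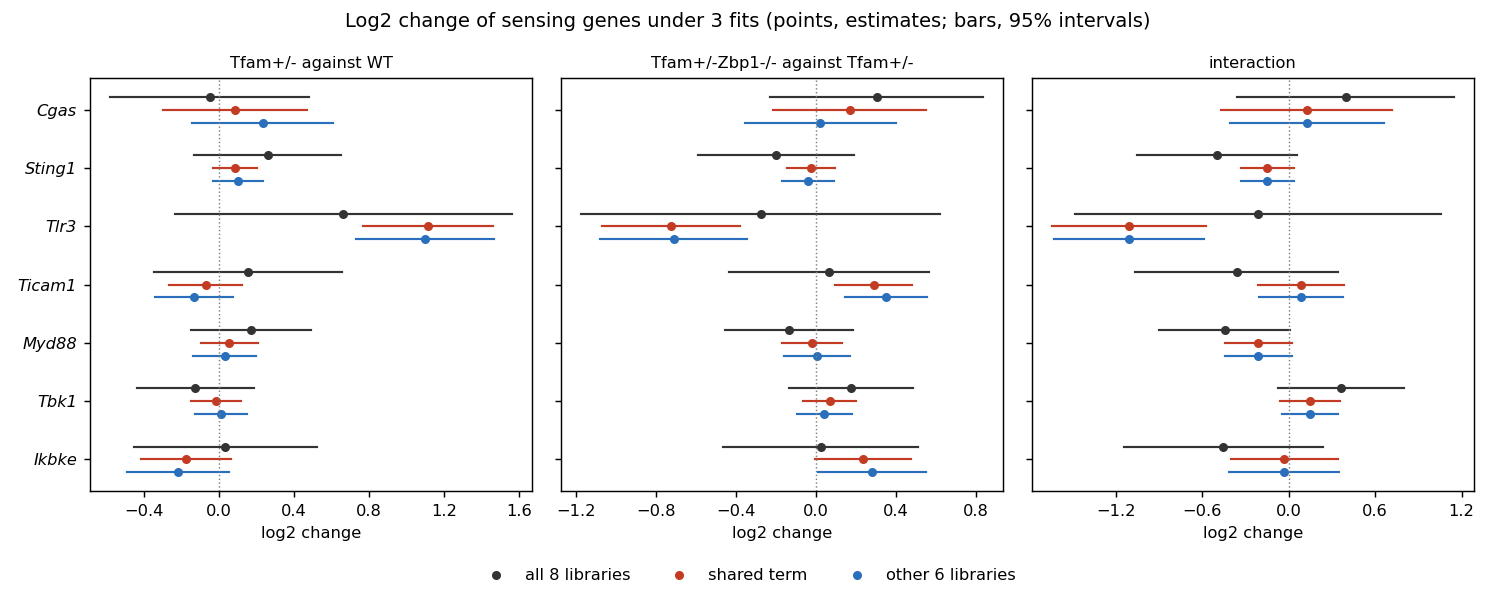
Log2 change (horizontal axes, which differ in range) of each sensing gene in 3 comparisons with all 8 libraries (black), with the shared term (red) and with the other 6 libraries (blue). Points are estimates and bars 95% intervals. For Tlr3 the red and blue bars do not reach 0 in any of the 3 comparisons, while the black bars do.

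For each gene the 3 tested genes with the most similar pattern over the 8 libraries were found by Pearson's r of the log2 values, as a description. For Sting1 they were Dgkz, Glb1 and Cdk11b (r = 0.9961 to 0.9934), and for Myd88 they included Bsdc1 (0.9955) and Snx11 (0.9938). For Ticam1 they were Syf2, Hmg20b and Zfp335 (0.9918 to 0.9908), for Tbk1 AW209491, Zfp961 and Prdx3 (0.9969 to 0.9897) and for Ikbke Uqcc3, Zfp358 and Chst14 (0.9852 to 0.9821). Tlr3 had Ptprq, Aste1 and Il7 (0.9836 to 0.9615), and Cgas had Ttc1, Zfp39 and Tbx20 (0.9503 to 0.9037), the loosest likeness of the 7. The 8 libraries share the deviation of Tfam+/- replicate 1 and Zbp1-/- replicate 2, which these values include.

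Of 26 genes that regulate cGAS or STING, all tested, Enpp1 was the only one called in any comparison with all 8 libraries. It was 1 of 26 in 4 of them, beside 0.731% (Tfam+/- against WT), 5.64% and 0.415% (Tfam+/-Zbp1-/- against Tfam+/- and against Zbp1-/-) and 0.663% (interaction) of all genes. Enpp1 encodes the enzyme that hydrolyses cGAMP outside the cell. It was at 703 and 681 normalized counts for WT, 357 and 416 for Tfam+/-, 524 and 477 for Zbp1-/-, and 1074 and 1075 for Tfam+/-Zbp1-/-. The 4 genotypes did not overlap, with Tfam+/- lowest and Tfam+/-Zbp1-/- highest. Enpp1 fell by 0.84 ± 0.12 on the log2 scale from WT to Tfam+/- (adjusted p = 0.0394). It rose by 1.48 ± 0.12 from Tfam+/- (adjusted p = 0.00251) and by 1.10 ± 0.12 from Zbp1-/- (adjusted p = 0.0351) to Tfam+/-Zbp1-/-, and its interaction was 1.94 ± 0.17 (adjusted p = 0.0179; limma). The median log2 change of the list from WT to Tfam+/- was 0.16, beside -0.01 over all genes.

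The call of Enpp1 from WT to Tfam+/- was lost without either WT library, without Tfam+/- replicate 1 and without either Tfam+/-Zbp1-/- library, with adjusted p from 0.131 to 0.453 and estimates from -0.86 to -0.73 in these fits. Its interaction lost the call without either WT library, without Zbp1-/- replicate 2 and without either Tfam+/-Zbp1-/- library (adjusted p 0.0615 to 0.193), with estimates from 1.88 to 1.97 in these fits. The rise from Zbp1-/- was lost without any one library of WT, Zbp1-/- or Tfam+/-Zbp1-/-, and that from Tfam+/- without either Tfam+/-Zbp1-/- library (adjusted p = 0.0554 and 0.053).

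Trex1, the exonuclease that degrades cytosolic DNA, was at 96.2 and 97.9 for WT, 196 and 140.4 for Tfam+/-, 94.9 and 131 for Zbp1-/-, and 107 and 98.3 for Tfam+/-Zbp1-/-. Both Tfam+/- libraries were above all others, but the log2 change of 0.77 ± 0.22 from WT did not pass (adjusted p = 0.345, limma). With the shared term it was 0.53 (adjusted p = 0.0173). Per length the most abundant of the list were Hmgb1 (1477 normalized counts per kb over the 8 libraries) and Banf1 (1010), both DNA-binding proteins.

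Of 22 other Toll-like receptors and their trafficking and co-receptor proteins, 18 were tested. Per length, among the other receptors Tlr4 (126 per kb) stood first, followed by Tlr2 (40.4), Tlr13 (26.6) and Tlr7 (25.1), beside 24.1 for Tlr3, while Tlr9 was at 1.83 and Tlr11 was listed at 0 in all libraries. Hsp90b1, the chaperone of these receptors, had the highest level of the list (12817 per kb). The DNA receptor Tlr9 ranged from 2.31 to 11.6 normalized counts and was below the level tested. Cd14, the co-receptor of Tlr4, was at 127 and 119 for Tfam+/- and 72.3 and 60.6 for Tfam+/-Zbp1-/-. It was the only call of the list with all 8 libraries (1 of 18, beside 5.64% of all genes). It fell by 0.88 ± 0.17 (adjusted p = 0.0312, limma), in the comparison in which 13 of the 15 macrophage and leukocyte markers were also called lower. The part of those cells in this fall was not tested. Leaving out any one library of WT, Tfam+/- or Tfam+/-Zbp1-/- ended the call (adjusted p 0.0577 to 0.25). The median log2 change of the list in that comparison was -0.17, beside 0.14 over all genes.

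Below Myd88 and Ticam1, 23 of 24 signal transducers were tested, and with all 8 libraries calls came in 1 comparison, Tfam+/-Zbp1-/- against Tfam+/- (1 higher and 2 lower, beside 5.64% of all genes; median 0.09, beside 0.14 over all genes). Peli2, a ubiquitin ligase of the Pellino family that acts on IRAK kinases, was at 135 and 169 for Tfam+/- and 358 and 348 for Tfam+/-Zbp1-/- and rose by 1.22 ± 0.18 (adjusted p = 0.0121). Irak2, one of those kinases, was at 555 and 471 and then 319 and 337, and fell by 0.64 ± 0.13 (adjusted p = 0.0366). Tnfaip3, the deubiquitinase A20 that restrains NF-kappa B, was at 164 and 183 and then 107 and 102, and fell by 0.73 ± 0.15 (adjusted p = 0.0385; limma). All 3 calls ended when either Tfam+/-Zbp1-/- library was left out. Those of Irak2 and Tnfaip3 also ended without either WT library or Tfam+/- replicate 1, and that of Tnfaip3 without Tfam+/- replicate 2 (adjusted p 0.0726 to 0.292 over these fits). The macrophage and leukocyte markers fell in the same comparison, as given for Cd14, and their part was not tested. Ube2v1 was the most abundant of the list per length (1486 per kb).

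Of 16 scaffolds, adaptors and substrates of Tbk1 and Ikbke, Irf7 was the only one called with all 8 libraries, 1 of 16 beside 0.731% of all genes from WT to Tfam+/-, 5.64% from Tfam+/- to Tfam+/-Zbp1-/- and 0.663% in the interaction. Irf7 encodes the interferon-induced relative of IRF3. It was at 29.0 and 44.9 normalized counts for WT, 475 and 347 for Tfam+/-, 51.7 and 73.2 for Zbp1-/-, and 67.3 and 82.3 for Tfam+/-Zbp1-/-. Both Tfam+/- libraries were above all others. Irf7 rose by 3.46 ± 0.29 on the log2 scale from WT to Tfam+/- (adjusted p = 0.00507) and fell by 2.43 ± 0.29 from Tfam+/- to Tfam+/-Zbp1-/- (adjusted p = 0.00644), with an interaction of -3.19 ± 0.41 (adjusted p = 0.0333; limma). From WT to Tfam+/- the estimates of 14 of the 15 macrophage and leukocyte markers were also above 0, with 0 called, and from Tfam+/- to Tfam+/-Zbp1-/- 13 of the 15 were called lower, with a median of -1.39. Their part in the changes of Irf7 was not tested. The first call was lost without WT replicate 1 (3.15, adjusted p = 0.0602). The second was lost without either Tfam+/-Zbp1-/- library, at -2.29 and -2.57 (adjusted p = 0.083 and 0.0684). The interaction lost the call without either library of WT or of Tfam+/-Zbp1-/-, without Tfam+/- replicate 1 and without Zbp1-/- replicate 2, with estimates from -3.49 to -2.88 (adjusted p 0.0852 to 0.236).

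Irf3, the substrate of TBK1 that is made without induction, was at 519.7 and 514 for WT, 737 and 529 for Tfam+/-, 559.7 and 771 for Zbp1-/-, and 566 and 599.6 for Tfam+/-Zbp1-/-. Its high values were those of the same 2 libraries in which Sting1 was high, and its log2 change from WT to Tfam+/- was 0.27 ± 0.21 (adjusted p = 0.562, limma). The list's median in that comparison was 0.12, beside -0.01 over all genes, and its most abundant members per length were Ddx3x (2655 per kb) and Sqstm1 (2175).

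With the shared term, on the deposited scale, more genes of these lists were called, as were more genes in general. From WT to Tfam+/-, where 15.6% of all genes were called, 2 regulators of cGAS or STING were called higher, Trex1 and Trim56, and 2 lower. No gene of the Toll-like receptor list was called there, while 2 transducers were higher and 1 lower and 2 scaffolds, adaptors and substrates were higher. From WT to Zbp1-/- (35.6% of all genes) the counts higher and lower were 8 and 5 of 26 regulators, 1 and 4 of 18 Toll-like receptor genes, 8 and 1 of 23 transducers, and 6 and 1 of 16 scaffolds, adaptors and substrates. From WT to Tfam+/-Zbp1-/- (42.5%) they were 14 and 2, 2 and 5, 6 and 1, and 7 and 1 in the same order of lists.

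From Tfam+/- to Tfam+/-Zbp1-/- (45.6%) the regulators had 9 higher and 3 lower, the transducers 6 and 3, and the scaffolds, adaptors and substrates 6 and 4. The Toll-like receptor list had 2 higher, Tlr6 and Cnpy3, and 7 lower. The lower were Tlr7, Tlr8, Tlr13, Cd14, Cd36, Hsp90b1 and Unc93b1, the protein that carries endosomal receptors. The macrophage and leukocyte markers were also lower there, as given above. From Zbp1-/- to Tfam+/-Zbp1-/- (23.8%) the 4 lists had 6 and 1, 1 and 3, 0 and 1, and 2 and 2. In the interaction (16.9%) they had 2 and 2, 0 and 2, 0 and 0, and 1 and 4.

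The interferon genes to which these routes lead were at or near 0. Of 20 type I and III interferon genes, 16 were listed at 0 in all 8 libraries, Ifnb1 among them, and 0 reached the level tested. Ifnz, at 0 to 3.71 normalized counts, was the highest. Their sum per library ran from 0.987 to 5.60 normalized counts, and both Tfam+/- libraries, at 1.10 and 0.987, were the lowest of the 8. The depth of the table cannot show differences at this level.

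**Figure D5:**
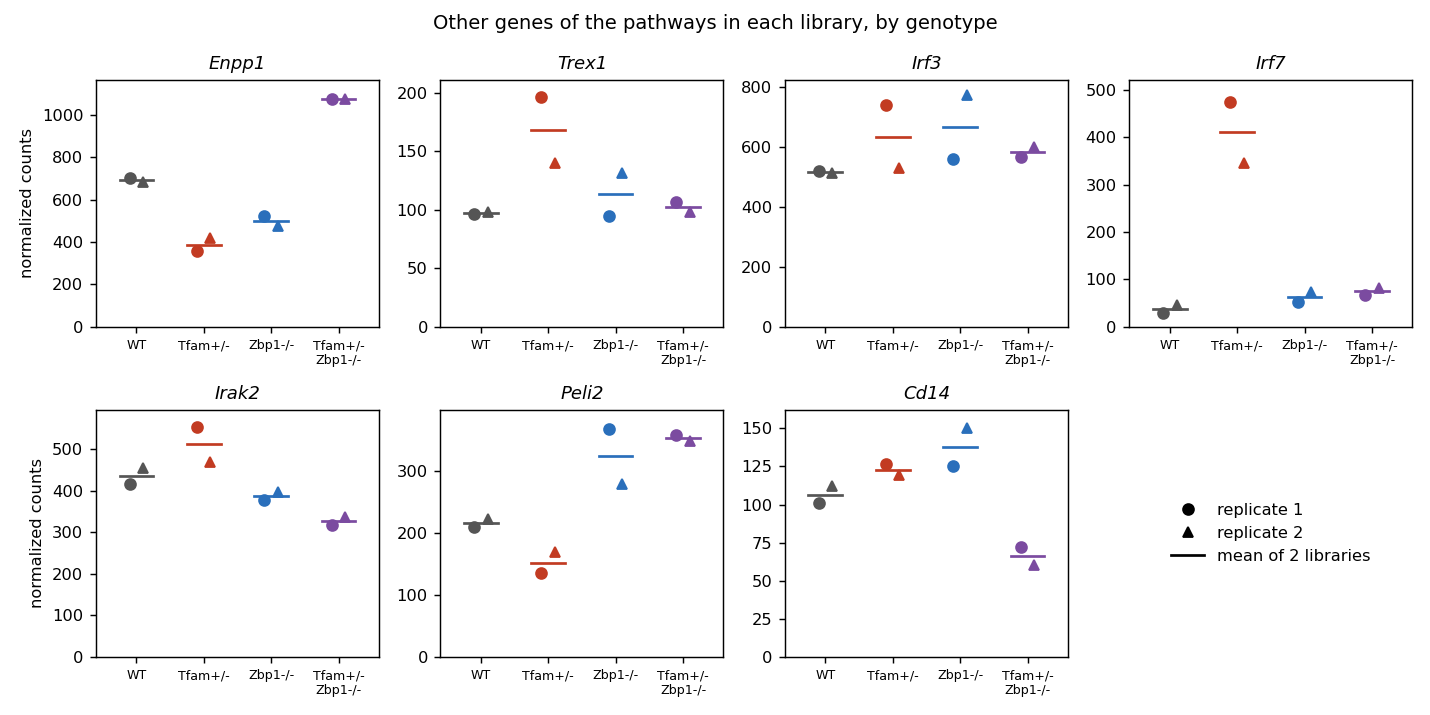
Normalized counts (vertical axes, each starting at 0) of 7 other genes of the pathways in the 2 libraries of each genotype (circles, replicate 1; triangles, replicate 2; lines, means). Both Tfam+/- libraries are below all others for Enpp1 and above all others for Irf7 and Trex1.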

How the data were processed

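Per the series' design text, reads were aligned with STAR to mm10 with RefSeq genes in BaseSpace, where genotypes were also compared in pairs; STAR 2.6.1a and Salmon are named in the submitters' processing notes. The table deposited by the authors holds a signal for every gene, their normalized counts, which are mostly not whole numbers. The counter, the kind of scaling and the use of strand were not stated. At most 35.0% of low values in a library lay within 0.01 of whole multiples of its commonest value, so whole reads were not recovered, depth in reads is unknown, and no count model was run.

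Tests used limma 3.58.1 in R 4.3.3 (lmFit, eBayes with trend) on log2(normalized count + 1), a scale on which low genes appear to change less. A mean of at least 10 was required, and 1 fit held all 8 libraries, with 4 residual and 2.77 prior degrees of freedom (3 and 15.1 with the shared term, 2 and 14.6 with 6 libraries). Tests were two-sided, with Benjamini-Hochberg adjustment over 13267 genes and calls at an adjusted p under 0.05. The interaction subtracts the log2 change of Tfam+/- from WT from that of Tfam+/-Zbp1-/- from Zbp1-/-. For a single gene, permuting 2 against 2 libraries exactly gives no p below 0.333. The fit was tested on simulated data. Coordinates are those of the whole gene in GENCODE (GRCm38), over all its transcripts. Exon lengths came from GENCODE transcripts linked to RefSeq, and promoters from RefSeq.

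Named genes were the 7 members, the 3 closest genes of each by r (1 of them is not reported here), the targeted genes and, from 5 pathway lists, called genes with the largest change and those highest per length. Trex1, Irf3, Usp18, Isg15, Trim56, Unc93b1, Cnpy3, Cd36, Tlr2, Tlr4, Tlr6, Tlr7, Tlr8, Tlr9, Tlr11, Tlr13, Ifnb1 and Ifnz were named after their values were seen. Members, lists and the shared term were chosen with earlier results of these data known. Alternatives were other pseudocounts (5 and 0.1), filters (none and a mean of 50) and TMM scaling, no trend in the prior, fits restricted to the genotypes of a comparison, a replicate block, and leaving out each library.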

Additional observations from a re-analysis of the deposited data

Results flagged for a closer look

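For 2 genes of the pathway lists, the change with 1 Tfam allele lost differed between cells with and without Zbp1 by the test of that difference itself, the interaction term. For Enpp1 the interaction was 1.94 on the log2 scale (limma, adjusted p = 0.0179): it was lower in Tfam+/- (357 and 416 normalized counts) than in WT (703 and 681) and higher in Tfam+/-Zbp1-/- (1074 and 1075) than in Zbp1-/- (524 and 477). For Irf7 the interaction was -3.19 (adjusted p = 0.0333): it was at 475 and 347 in Tfam+/- against 29.0 and 44.9 in WT, and at 67.3 and 82.3 in Tfam+/-Zbp1-/- against 51.7 and 73.2 in Zbp1-/-. Both calls ended when any of several single libraries was left out, as given beside these genes above.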

How the results depend on the processing

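The count of sensing genes called was 0 in each comparison under every alternative but 3, and leaving out each library in turn gave 0 to 0. With the term shared by Tfam+/- replicate 1 and Zbp1-/- replicate 2 it was 1 for Tfam+/- and 1 for Zbp1-/- (each set against WT), 2 for Tfam+/-Zbp1-/- set against WT, 2 for the same set against Tfam+/-, and 1 for the interaction, and with the other 6 libraries 1, 2, 2, 2 and 1. Fitting only WT and Tfam+/-Zbp1-/-, the genotypes whose replicates lay closest together, gave 2. The share of all genes called in that fit was not counted, so the 2 calls cannot be read as a result about the sensing genes. The cause was not tested. Calls of pathway genes were lost under several alternatives (limma, adjusted p given). With only the genotypes compared, Enpp1 was lost from WT to Tfam+/- (0.254) and from Zbp1-/- to Tfam+/-Zbp1-/- (0.208). Cd14 (0.109), Irak2 (0.142) and Tnfaip3 (0.129) were lost there too. Without a trend in the prior, Enpp1 was lost from WT to Tfam+/- (0.0515). Without a filter, Cd14 (0.0541), Tnfaip3 (0.0688) and the interaction of Irf7 (0.0522) were lost. The replicate block gave 0 sensing genes in every comparison. Same-numbered libraries did not deviate together (r of replicate differences across genes from -0.698 to 0.0591), so the numbers do not pair the libraries. Under the block the calls of Enpp1 (Tfam+/- against WT, adjusted p = 0.163; against Zbp1-/-, 0.188; interaction, 0.09), Cd14 (0.0935), Irak2 (0.111), Tnfaip3 (0.111) and the interaction of Irf7 (0.115) were lost.

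Among the values of single genes, 827 kept direction and call, 17 newly passed the threshold, 62 lost a call and 39 turned sign, all 39 of sensing genes not called with 8 libraries. From WT to Tfam+/-, with the term and with 6 libraries, Cgas went to 0.0867 and 0.23, Ikbke to -0.18 and -0.22 and Ticam1 to -0.0694 and -0.13, and Tbk1 went to 0.0098 with 6 libraries. From WT to Zbp1-/-, Cgas went to 0.0448 with the term and Tlr3 to 0.39 and 0.40. In the interaction Ticam1 went to 0.0851 in both fits, whose interaction estimates are the same by construction. From Zbp1-/- to Tfam+/-Zbp1-/-, Ticam1 went to 0.0156 with the term and Tlr3 to -0.0125 with 6 libraries, and from Tfam+/- to Tfam+/-Zbp1-/- Myd88 went to 0.00696 with 6 libraries. TMM rescaling gave -0.0523 (Sting1), -0.0629 (Tbk1), -0.0533 (Ikbke) and -0.0773 (Myd88) in Tfam+/-Zbp1-/- against WT, and -0.0947 (Ikbke) and -0.0558 (Ticam1) against Tfam+/-.

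Leaving out 1 library gave, from WT to Tfam+/-, -0.33 to 0.23 for Cgas, -0.26 to 0.0098 for Tbk1, -0.22 to 0.29 for Ikbke and -0.13 to 0.44 for Ticam1. From WT to Zbp1-/- it gave -0.18 to 0.000564 for Cgas and -0.53 to 0.40 for Tlr3, and from WT to Tfam+/-Zbp1-/- -0.00121 to 0.11 for Tbk1 and -0.0197 to 0.14 for Ikbke. From Tfam+/- to Tfam+/-Zbp1-/- it gave -0.23 to 0.28 for Ikbke, -0.71 to 0.16 for Tlr3, -0.22 to 0.35 for Ticam1 and -0.28 to 0.00696 for Myd88, and from Zbp1-/- -0.0125 to 0.91 for Tlr3. The interaction of Tlr3 ran from -0.68 to 0.25.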
